A study of Mus musculus with 2 samples.

Results

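Collagen chain genes, the genes that encode the alpha chains of the collagen proteins, were followed across the stromal cells of the mouse colon. Members were all features of both count matrices whose symbol is Col, a chain type number, the letter a and a chain number, which gave 44 of 33696 features. By chain type number 11 were fibrillar, 6 belonged to the basement membrane type (Col4a1 to Col4a6), 6 to the beaded filament type (Col6a1 to Col6a6) and 21 to other types. By its title, the study was about what Il10ra, a subunit of the interleukin 10 receptor, does in fibroblasts to limit disease of the large intestine. Stromal cells came from Il10ra ff; Pdgfra-cre mice, called the Cre library here, and from Il10ra ff mice, called the control library. Both groups thus carried Il10ra ff, the usual notation for alleles flanked by loxP sites, and differed in a Cre recombinase driven by Pdgfra. Mice were 6 months old, 2 per genotype by the design text, and each genotype gave 1 library, so the mice of a group cannot be told apart in these counts. Pdgfra is expressed in fibroblasts and in other mesenchymal cells, and no group used here carried the Cre without the floxed alleles. Whole colons were taken and the viable cells sorted that bore Podoplanin but not CD45, CD31 or EpCAM, surface proteins of blood, endothelial and epithelial cells.

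Collagen chains are made on the rough endoplasmic reticulum, where their prolines and lysines are hydroxylated and the chains wind around each other as a helix. Fibrillar collagens (types I, III and V among them) are secreted as procollagens, trimmed at both ends and packed into the tensile fibrils of connective tissue. Type IV collagen forms the sheet-like network of basement membranes, type VI forms beaded filaments near cells, and fibril-associated collagens such as types XII and XIV coat the surface of fibrils. In the gut wall most of these chains are made by fibroblasts, with smooth muscle, glia and endothelium adding to their own basement membranes.

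The Cre library held 8627 barcodes and 66845139 unique molecular identifiers (UMIs, each a tag for 1 captured transcript), with a median of 7332 per barcode, and the control library 11380 barcodes, 76570611 UMIs and a median of 6505. After removal of poor barcodes and called doublets, 8316 cells of the Cre library and 10573 of the control library were kept. The libraries shared 115 barcodes, 1.33% of those of the Cre library and 1.01% of those of the control library. The kit read transcripts from the 5' end and counted each molecule once, so levels of different genes are compared without division by length, as CPM, a gene's UMIs over all UMIs of the class on the usual scale. Il10ra itself had 5 UMIs in the Cre library (0.0820 CPM, 95% Poisson interval 0.0266 to 0.191) and 1 UMI in the control library (0.0156 CPM, 0.000395 to 0.0869) in fibroblast-like cells. Reads from the 5' end may lie outside the deleted part of the gene, which the labels do not give, so these counts do not check the genotype. With 1 library per genotype no difference has a replicate check, no p-value was computed, and every interval given is a 95% interval of counting error only. A gene was counted as measured at a mean of at least 10 CPM over both libraries and as different when the ratio of CPM, with 1 CPM added to each, was at least 1.5-fold.

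Cells were assigned to stromal classes by marker genes that held no collagen. Fibroblast-like cells numbered 7726 in the Cre library, 92.9% of kept cells, and 9482 in the control library, 89.7%. Their medians were 7 of 8 detected fibroblast markers (Pdgfra, Dcn, Lum, Dpt, Pdpn, Thy1, Fbln1 and Gsn) in both libraries, and Pdpn is also the gene of the sorted protein. Markers of leukocytes, 8 genes, summed to 9.61 CPM in the Cre library and 5.02 CPM in the control library in these cells, with Ptprc, the gene of CD45, at 2 UMIs in the Cre library and 4 UMIs in the control library. Those of epithelium, 6 genes, summed to 5.25 CPM in the Cre library and 4.68 CPM in the control library, with Cdh1 at 0 UMIs in both. Among the fibroblast-like cells, subepithelial-like fibroblasts (Sox6, Foxl1, F3, Bmp3, Bmp5, Bmp7, Wnt5a, Frzb) lie under the crypt epithelium and numbered 621 in the Cre library and 1289 in the control library. Lamina propria-like fibroblasts (Adamdec1, Edil3, Frmpd4, Cd36, Hcar2, Agt, Stmn2) numbered 1624 in the Cre library and 3059 in the control library. Adventitial-like fibroblasts (the adventitial or trophocyte markers Pi16, Dpp4, Sema3c, Cd55, Ackr4, Grem1, Clec3b and Cd81) numbered 3351 in the Cre library and 2697 in the control library. The other 2130 fibroblast-like cells of the Cre library and 2437 of the control library took no class, and 726 and 833 fibroblast-like cells of the Cre and control library lay within 0.05 of the score margin that decides a class. The libraries also fell into different clusters within a class. Cluster 1 held 74.3% of the lamina propria-like cells of the Cre library, while clusters 3, 7 and 12 held 36.2%, 21.9% and 18.6% of those of the control library. For adventitial-like cells, clusters 2, 5 and 8 were the largest in the Cre library (36.0%, 22.5% and 21.7%) and clusters 0, 9 and 8 in the control library (44.5%, 28.4% and 11.5%). Subepithelial-like cells were mostly in cluster 4 in both, 70.0% in the Cre library and 81.1% in the control library.

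Collagen chains took a smaller share of the transcripts in the Cre library in every fibroblast class. In fibroblast-like cells the 44 genes had 467923 of 61009491 UMIs in the Cre library, or 0.767% (Clopper-Pearson interval 0.765 to 0.769%), and 674413 of 64092111 in the control library, or 1.05% (1.05 to 1.05%), a ratio of 0.729 (0.726 to 0.732). The share was 0.750% in the Cre library and 1.12% in the control library in lamina propria-like cells, 0.959% against 1.15% in subepithelial-like cells and 0.777% against 0.969% in adventitial-like cells. Of the 3 classes the lamina propria-like cells thus had the lowest ratio, 0.670, and the subepithelial-like cells the highest, 0.837. Outside the fibroblasts the shares lay closer together in smooth muscle-like cells, 0.698% in the Cre library and 0.728% in the control library, and were in the other order in mesothelium-like cells, 0.341% and 0.277%. Interstitial cell of Cajal-like (ICC-like) cells, the pacemaker cells of gut muscle, had 0.530% in the Cre library and 0.835% in the control library, from only 67 and 73 cells.

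**Figure D1:**
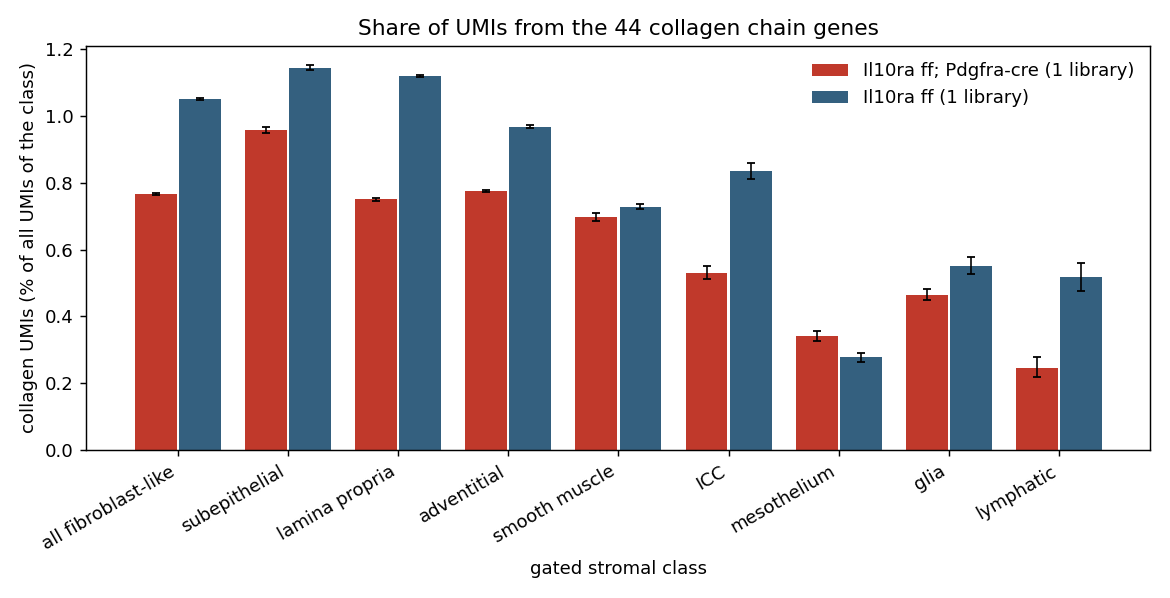
Share of all UMIs that came from the 44 collagen chain genes (y axis, percent) in each gated stromal class, Il10ra ff; Pdgfra-cre in red and Il10ra ff in blue, 1 library each; bars are the share of summed UMIs and whiskers its 95% Clopper-Pearson interval, which covers counting error only. All fibroblast-like cells stand at 0.767% and 1.05%, and mesothelium is the class with the bar of the Cre library on top.

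The difference was also seen cell by cell. With each cell thinned to 2000 UMIs, the median fibroblast-like cell had 13 collagen UMIs in the Cre library (10th to 90th percentile 6 to 26, 7243 cells) and 19 in the control library (10 to 33, 8657 cells). Before thinning the medians were 48 in the Cre library and 58 in the control library, at median depths of 7480.5 and 6571.5 UMIs. Lamina propria-like cells had thinned medians of 13 in the Cre library and 20 in the control library, adventitial-like cells 13 and 17, and subepithelial-like cells 17 and 21. The ranges of single cells overlapped widely in each class, and cells of 1 library are not replicates. Shallower cells were left out, 483 fibroblast-like cells of the Cre library and 825 of the control library.

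**Figure D2:**
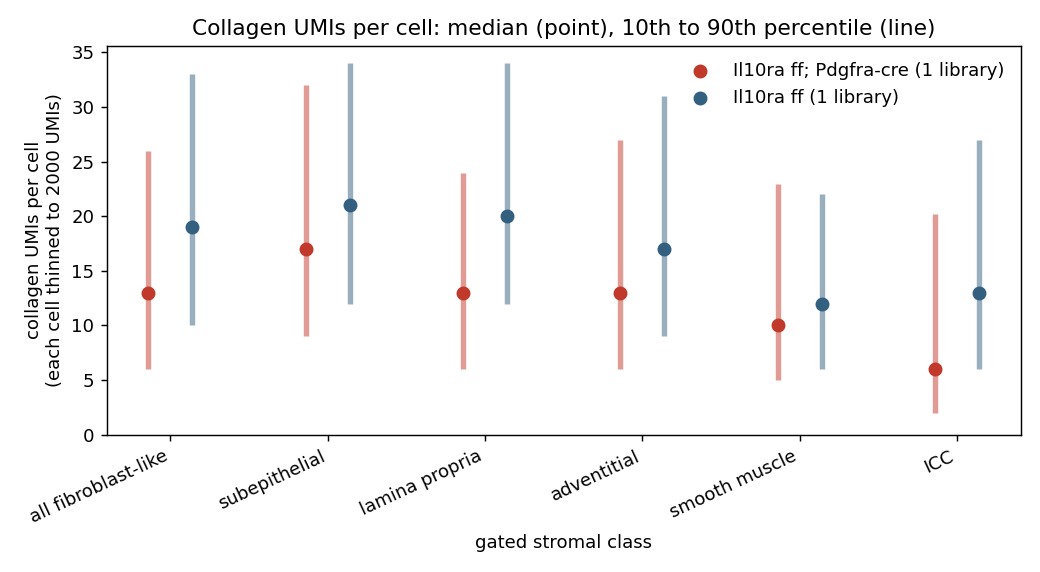
Collagen UMIs per cell (y axis) after thinning each cell to 2000 UMIs, by gated class, Il10ra ff; Pdgfra-cre in red and Il10ra ff in blue, 1 library each; points are medians over cells and lines run from the 10th to the 90th percentile. Fibroblast-like medians are 13 and 19, and the lines of the libraries overlap in each class shown.

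Of the 44 members 22 were measured in fibroblast-like cells, and 8 of these were at least 1.5-fold lower in the Cre library, against 3.15% of all 9022 measured genes. None was at least 1.5-fold higher, against 3.84% of all measured genes, and the other 14 lay in between. Col23a1 came nearest to the upper line, with a log2 ratio of 0.57. The 8 were Col1a1, Col3a1, Col4a5, Col4a6, Col6a2, Col6a5, Col12a1 and Col15a1. The median log2 ratio of the 22 was -0.47, beside -0.04 over all measured genes, and 17 of the 22 were below 0. The mix of fibroblast classes differed between the libraries. The 3 named classes were therefore also given the same weight in both libraries, with the cells without a class left out. Of the 23 members then measured, 2 were at least 1.5-fold lower (Col3a1, log2 ratio -0.68, and Col4a6, -0.65). As much higher was 1 (Col23a1, 0.85). The median was -0.32, beside 0.01 over all genes measured with these weights. The share of all measured genes past 1.5-fold was not computed with these weights, so the 2 counts have no background beside them.

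Within the classes the differences had different sizes and, for some genes, different directions. Lamina propria-like cells had 10 of 24 measured members at least 1.5-fold lower and 3 higher, where 3.74% of 9181 measured genes were lower and 5.95% higher. Adventitial-like cells had 2 of 19 lower and 0 higher, where 2.12% of 8405 genes were lower and 4.47% higher, and subepithelial-like cells 1 of 24 lower and 5 higher, where 2.75% of 9416 were lower and 5.1% higher. Fibroblast-like cells without a class had 7 of 21 lower and 0 higher, where 2.58% of 9036 genes were lower and 4.46% higher, and the 7 were Col1a1, Col3a1, Col4a5, Col4a6, Col6a2, Col12a1 and Col15a1. Medians over the measured members were -0.45, -0.32 and -0.15 in lamina propria-like, adventitial-like and subepithelial-like cells, beside 0.04, -0.01 and 0.01 over all their measured genes. Of 19 members measured in these 3 classes, 12 were below 0 in each of them and 2, Col4a1 and Col4a2, above 0 in each, while none was 1.5-fold lower in all 3. Several marker values moved with the classes. In lamina propria-like cells 4 of 7 measured lamina propria markers were themselves at least 1.5-fold lower and 1 higher. Their log2 ratios had a median of -0.98 and ran from -3.92 to 1.09, so the genes that set this gate differed strongly between the libraries. The 7 markers summed to 4291 CPM in the Cre library and 3895 CPM in the control library, a sum that does not show these differences. There 8 genes listed as free RNA summed to 522 CPM in the Cre library and 81.3 CPM in the control library. The sums were 28.3 CPM in the Cre library and 10.7 CPM in the control library in subepithelial-like cells. In adventitial-like cells they were 16.8 and 3.02 CPM. The listed genes did not move together when all fibroblast-like cells were pooled. Hbb-bs, of haemoglobin, then had 86.3 CPM in the Cre library and 0.437 CPM in the control library. The immunoglobulin genes Igha, Igkc and Jchain were lower in the Cre library. Whether this RNA came from outside the cells was not tested. In adventitial-like cells 2 of 8 adventitial markers were lower and 1 higher (7652 CPM in the Cre library and 8809.9 CPM in the control library). In subepithelial-like cells 6 of 16 genes of tissue dissociation stress were at least 1.5-fold lower (25909 CPM in the Cre library and 35785 CPM in the control library). Of 6 measured adventitial markers 2 were higher there and 0 lower (1306 CPM in the Cre library and 1202 CPM in the control library). Of 5 measured lamina propria markers 1 was higher there and 2 lower (2291 CPM in the Cre library and 2243 CPM in the control library). Their part in the collagen values was not tested.

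**Figure D3:**
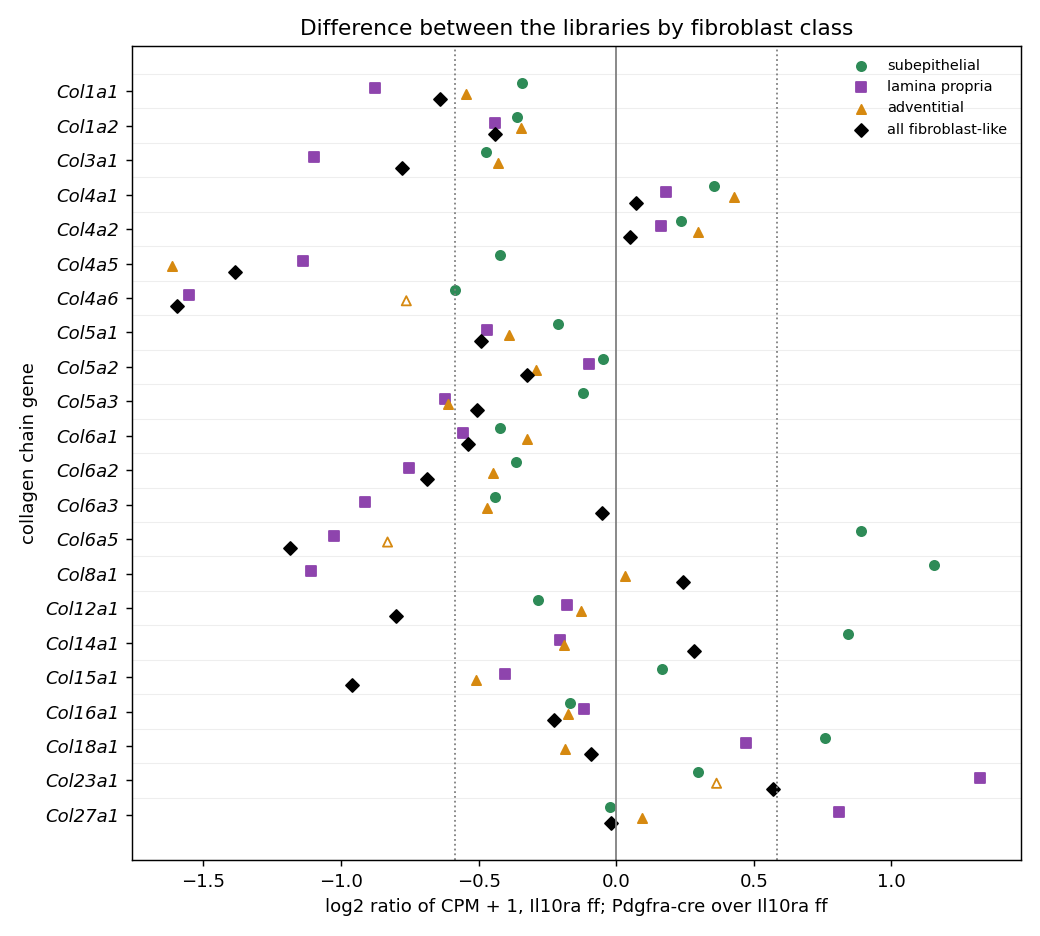
Log2 ratio of CPM + 1, Il10ra ff; Pdgfra-cre over Il10ra ff (x axis), for the 22 measured collagen chain genes (y axis) in subepithelial-like (green circles), lamina propria-like (purple squares), adventitial-like (orange triangles) and all fibroblast-like cells (black diamonds), 1 library per genotype; open symbols have a mean under 10 CPM and dotted lines mark 1.5-fold. Col3a1 is left of 0 in each class, Col4a1 and Col4a2 right of 0, and Col8a1 lies on both sides.

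The chains of types I and III were the 3 most abundant members, and the 7 measured fibrillar genes were all below 0 in fibroblast-like cells (median log2 ratio -0.49). Col3a1, the chain of type III collagen, which forms fine reticular fibrils, was the highest collagen gene, at 1678 CPM in the Cre library and 2878 CPM in the control library. It was 1.72-fold lower in the Cre library (1.70 to 1.73), and its values in lamina propria-like cells, 1626 CPM in the Cre library and 3487 CPM in the control library, differed by 2.14-fold (2.11 to 2.18). In subepithelial-like cells it was 1.39-fold and in adventitial-like cells 1.35-fold lower, under the 1.5-fold line. Col3a1 is thus a gene with the same direction in all 3 classes and its largest difference in the lamina propria-like cells.

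Col1a1 and Col1a2 encode the chains of type I collagen, the main collagen of fibrils. Col1a1 had 751 CPM in the Cre library and 1170 CPM in the control library and was 1.56-fold lower (1.54 to 1.58), with 1.84-fold in lamina propria-like cells (680 CPM in the Cre library and 1249 CPM in the control library). Col1a2 had 912 CPM in the Cre library and 1239 CPM in the control library, 1.36-fold lower (1.34 to 1.37), and differed by nearly the same factor in lamina propria-like cells (1.36), adventitial-like cells (1.27) and subepithelial-like cells (1.28). The chains of 1 protein therefore did not differ alike in lamina propria-like cells. Their UMI ratio, Col1a1 over Col1a2, also differed in adventitial-like cells, 0.905 in the Cre library and 1.04 in the control library. The windows just before the starts of Col1a2 and Col3a1, the 2 most abundant fibrillar genes, are shown as the regulatory sequence next to these values. Each is the 250 bases before the start site, read on the gene's strand from RefSeq on GRCm38.p6, a build other than that of the counts, and the capitals mark CCAAT and GGGCGG, the boxes known to bind NF-Y and Sp1.
Col1a2: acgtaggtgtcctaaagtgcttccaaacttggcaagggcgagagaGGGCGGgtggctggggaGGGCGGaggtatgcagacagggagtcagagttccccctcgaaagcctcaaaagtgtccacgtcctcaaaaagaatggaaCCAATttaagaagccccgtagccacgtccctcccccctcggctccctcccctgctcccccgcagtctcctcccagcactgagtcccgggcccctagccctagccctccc
Col3a1: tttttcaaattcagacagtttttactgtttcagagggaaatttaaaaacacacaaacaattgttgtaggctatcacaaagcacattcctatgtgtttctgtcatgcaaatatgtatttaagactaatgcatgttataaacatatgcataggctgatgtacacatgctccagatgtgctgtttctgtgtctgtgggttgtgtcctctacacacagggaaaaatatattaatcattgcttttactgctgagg
The Col1a2 window, chr6:4505368-4505617 on the plus strand, holds 1 CCAAT 109 to 105 bases before the start and 2 GGGCGG. The Col3a1 window, chr1:45311288-45311537 on the plus strand, holds neither, nor TTCNNNGAA, the core of sites of STAT proteins. Searched on both strands, CCAAT was in 33.8%, GGGCGG in 32.7% and TTCNNNGAA in 7.02% of 32851 windows of this length, and 35 of the 44 members, 18 of the 22 measured, had a window. CCAAT was in those of 13 members, 7 of them measured. A match is a description of letters only.

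Type V chains, which join type I fibrils and limit their width, were lower by under 1.5-fold over all fibroblast-like cells. Col5a1 had 290 CPM in the Cre library and 409 CPM in the control library (1.41-fold lower, 1.38 to 1.44) and Col5a2 had 317 CPM in the Cre library and 397 CPM in the control library (1.25-fold lower, 1.23 to 1.28). Col5a3, a scarcer type V chain, had 60.3 CPM in the Cre library and 86.1 CPM in the control library and passed 1.5-fold within lamina propria-like cells (log2 ratio -0.62) and adventitial-like cells (-0.61). Col27a1, a fibrillar chain known from cartilage, was at 48.8 CPM in the Cre library and 49.4 CPM in the control library over all fibroblast-like cells. Within lamina propria-like cells it was at 89.4 CPM in the Cre library and 50.6 CPM in the control library, 1.77-fold higher (1.63 to 1.92), in the opposite direction to the type I and III chains.

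The basement membrane chains split into pairs. Col4a1 and Col4a2, the widespread chains that assemble together, were close to equal in fibroblast-like cells. Col4a1 had 468 CPM in the Cre library and 445 CPM in the control library (ratio 1.05, 1.03 to 1.07), and Col4a2 had 241 CPM in the Cre library and 232 CPM in the control library (ratio 1.04, 1.01 to 1.06). In adventitial-like cells they were somewhat higher in the Cre library, with ratios of 1.35 for Col4a1 and 1.23 for Col4a2, below 1.5-fold. Col4a5 and Col4a6, chains of another type IV network, the first of them mutated in human X-linked Alport syndrome, had the lowest ratios of the measured members. Col4a5 had 27.2 CPM in the Cre library and 72.7 CPM in the control library (2.67-fold lower, 2.53 to 2.83) and Col4a6 had 11.8 CPM in the Cre library and 37.5 CPM in the control library (3.19-fold lower, 2.94 to 3.48). Both were highest in subepithelial-like cells, which made up a smaller part of the fibroblasts of the Cre library. There Col4a5 had 240 CPM in the Cre library and 322 CPM in the control library (1.34-fold lower, 1.25 to 1.44), and Col4a6 had 125 CPM in the Cre library and 189 CPM in the control library (log2 ratio -0.59). ICC-like cells came next, Col4a5 at 72.1 CPM in the Cre library and 195 CPM in the control library and Col4a6 at 48.1 and 148 CPM. In adventitial-like cells Col4a5 had a log2 ratio of -1.61 (200 UMIs in the Cre library and 396 UMIs in the control library). In lamina propria-like cells both were low, Col4a5 at 15.2 CPM in the Cre library and 34.6 CPM in the control library and Col4a6 with 67 UMIs in the Cre library and 435 UMIs in the control library (log2 ratio -1.55). Smooth muscle-like cells showed the other direction, Col4a5 at 52.4 CPM in the Cre library and 32.5 CPM in the control library and Col4a6 with a log2 ratio of 1.22.

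Each pair also lies head to head in the genome. In the RefSeq annotation on GRCm38.p6 the starts of Col4a1 and Col4a2 lie 21 bases apart on opposite strands, and those of Col4a5 and Col4a6 lie 1343 bases apart on chromosome X. The windows of Col4a5 and Col4a6, the pair with the lowest ratios, are shown as letters next to these values. Each gene of this pair was lower in the Cre library over fibroblast-like cells, but not by the same factor. Both windows lie within the stretch between the starts, and each is read on its own gene's strand. Capitals mark CCAAT and GGGCGG, this second motif as CCGCCC where the match is on the other strand.
Col4a5: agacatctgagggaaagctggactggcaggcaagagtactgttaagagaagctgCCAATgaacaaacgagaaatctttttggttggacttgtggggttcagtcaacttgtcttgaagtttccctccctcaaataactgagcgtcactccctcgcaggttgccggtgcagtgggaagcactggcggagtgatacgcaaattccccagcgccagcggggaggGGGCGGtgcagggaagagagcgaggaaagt
Col4a6: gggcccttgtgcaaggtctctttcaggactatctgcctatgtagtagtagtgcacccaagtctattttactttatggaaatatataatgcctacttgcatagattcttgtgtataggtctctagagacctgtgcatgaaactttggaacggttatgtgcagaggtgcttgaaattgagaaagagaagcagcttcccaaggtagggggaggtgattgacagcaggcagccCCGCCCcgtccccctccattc
The Col4a5 window, chrX:141475169-141475418 on the plus strand, holds 1 CCAAT and 1 GGGCGG, the GGGCGG 30 to 25 bases before the start. The Col4a6 window, chrX:141474077-141474326 on the minus strand, holds 1 GGGCGG match, 21 to 16 bases before the start, and no CCAAT.

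The beaded filament chains Col6a1, Col6a2 and Col6a3, which assemble into type VI collagen, differed in how far their summed values followed the classes. Col6a1 had 500.1 CPM in the Cre library and 726 CPM in the control library (1.45-fold lower, 1.43 to 1.47), and Col6a2 had 518 CPM in the Cre library and 834 CPM in the control library (1.61-fold lower, 1.59 to 1.63). Col6a3 looked level over all fibroblast-like cells, 282 CPM in the Cre library and 292 CPM in the control library. In each named class, however, Col6a3 was lower in the Cre library, at 68.2 CPM in the Cre library and 129 CPM in the control library in lamina propria-like cells (1.90-fold, 1.76 to 2.05). Its values were 375 CPM in the Cre library and 520.1 CPM in the control library in adventitial-like cells (1.39-fold lower) and 281 CPM in the Cre library and 382 CPM in the control library in subepithelial-like cells (1.36-fold lower). Adventitial-like cells, where Col6a3 was highest, were 40.3% of kept cells in the Cre library and 25.5% in the control library. Cells without a class had Col6a3 at 277 CPM in the Cre library and 238 CPM in the control library.

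Col6a5, a long chain that can take the place of Col6a3 in type VI collagen, was scarce, with 7.06 CPM in the Cre library and 17.3 CPM in the control library (2.45-fold lower, 2.19 to 2.75). It was 2.10-fold lower in lamina propria-like cells (200 UMIs in the Cre library and 828 UMIs in the control library) but 1.91-fold higher, 1.49 to 2.45, in subepithelial-like cells (132 UMIs in the Cre library and 133 UMIs in the control library, of 4523292 and 8700395 UMIs in all). Col6a5 lay just above the 10 CPM line, at a mean of 12.2 CPM, and the next member below it was Col24a1, a fibrillar chain, at a mean of 9.23 CPM. Col6a4, another long chain of this family, was under 10 CPM in fibroblast-like cells and was highest in smooth muscle-like cells, 38.9 CPM in the Cre library and 43.4 CPM in the control library.

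Among the fibril-associated chains, Col12a1 and Col14a1 were highest in different classes. Col12a1, a chain that lies on the surface of type I fibrils, was highest in glia-like and subepithelial-like cells and had 155 CPM in the Cre library and 271 CPM in the control library over fibroblast-like cells (1.75-fold lower, 1.70 to 1.79). Within the named classes its difference was smaller, with log2 ratios of -0.28 in subepithelial-like, -0.18 in lamina propria-like and -0.13 in adventitial-like cells, and with the 3 named classes weighted alike it was -0.24. In cells without a class it was -0.84. Col14a1, a related chain, was at 1264 CPM in the Cre library and 1443 CPM in the control library in adventitial-like cells, at least 3.50-fold above its next class in each library. Over all fibroblast-like cells it was at 829 CPM in the Cre library and 681 CPM in the control library, while in adventitial-like and lamina propria-like cells it was slightly lower in the Cre library (log2 ratios -0.19 and -0.21). Col14a1 thus had opposite signs in the sum and in its main class. Col16a1, another fibril-associated chain, varied little, from -0.12 to -0.18 in log2 ratio over the 3 classes.

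Col15a1 and Col18a1 encode the multiplexins, collagens of the basement membrane zone whose ends release the fragments endostatin and its type XV relative. Col15a1 marked lamina propria-like cells, with 335 CPM in the Cre library and 444 CPM in the control library, against at most 145 CPM in the Cre library and 210 CPM in the control library in any other named class. Cells without a class had 186 CPM in the Cre library and 361 CPM in the control library, 1.94-fold lower (1.85 to 2.03). Its 1.95-fold lower level over fibroblast-like cells (140.4 CPM in the Cre library and 274 CPM in the control library) was larger than the 1.32-fold in its main class. Col18a1 was lower by 1.07-fold over fibroblast-like cells but higher in subepithelial-like cells, 152 CPM in the Cre library and 89.2 CPM in the control library (1.70-fold, 1.53 to 1.89), and in lamina propria-like cells, 221 CPM in the Cre library and 159 CPM in the control library (1.39-fold). The highest level of Col18a1 was in glia-like cells, 541 CPM in the Cre library and 634 CPM in the control library.

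Col8a1, a short-chain collagen known from vessel walls, was 2.18-fold lower in lamina propria-like cells (69.5 CPM in the Cre library and 151 CPM in the control library) and 2.27-fold higher in subepithelial-like cells (65.0 CPM in the Cre library and 28.6 CPM in the control library). In adventitial-like cells, where it was highest, it was at 337 CPM in the Cre library and 329 CPM in the control library, a ratio of 1.02. Of 6 measured adventitial markers 2 were also higher and 0 lower in subepithelial-like cells, and their part in this value was not tested. Col23a1, a transmembrane collagen, was at 21.4 CPM in the Cre library and 14.1 CPM in the control library over fibroblast-like cells and 2.59-fold higher, 2.27 to 2.96, in lamina propria-like cells (42.7 CPM in the Cre library and 16.5 CPM in the control library). Its level in fibroblasts was small beside that in lymphatic endothelium-like cells, 836 CPM in the Cre library and 534 CPM in the control library, from 42 and 41 cells. Col28a1, under 10 CPM in all fibroblast-like cells, was 2.54-fold higher, 2.14 to 3.02, in lamina propria-like cells (25.2 CPM in the Cre library and 9.91 CPM in the control library).

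**Figure D4:**
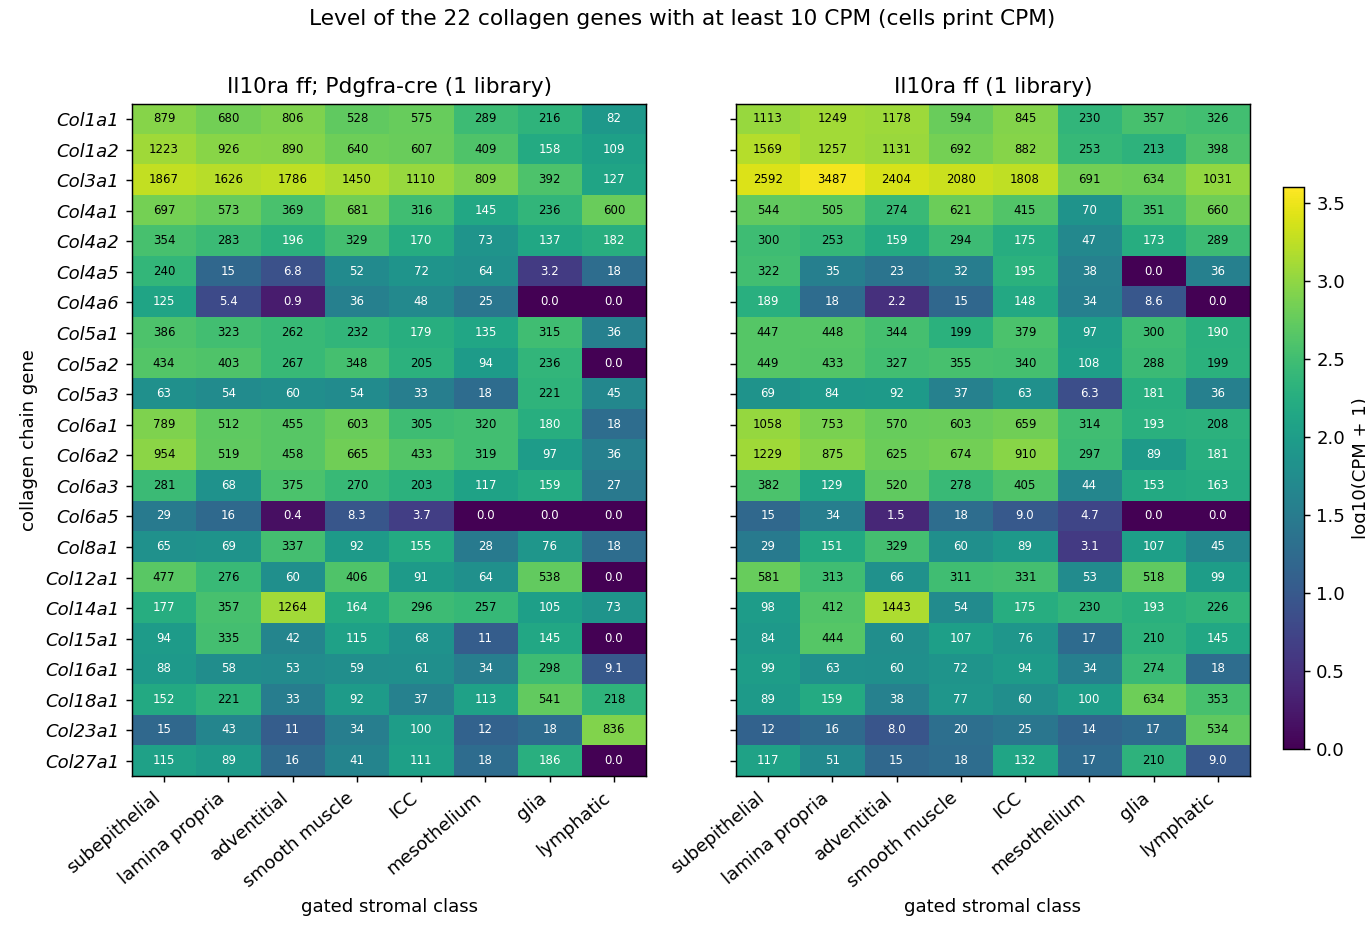
Level of the 22 measured collagen chain genes (rows) in 8 gated stromal classes (columns), Il10ra ff; Pdgfra-cre on the left and Il10ra ff on the right, 1 library each; colour is log10(CPM + 1) and the printed numbers are CPM. The bright squares shared by both libraries include Col14a1 in adventitial cells (1264 and 1443 CPM), Col15a1 in lamina propria cells (335 and 444 CPM) and Col23a1 in lymphatic endothelium (836 and 534 CPM).

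The class pattern of the genes was mostly shared by the libraries: 16 of the 22 had the same highest class in both. In the Cre library 12 genes were highest in subepithelial-like cells and 1 in lamina propria-like cells, against 8 and 5 in the control library. Col1a1, Col3a1 and Col5a1 were among those that were highest in lamina propria-like cells in the control library and in subepithelial-like cells in the Cre library. Neighbours in the order were often close, since Col5a1 had 448 CPM in lamina propria-like and 447 CPM in subepithelial-like cells of the control library, and the highest class of Col3a1 in the Cre library exceeded the next by a factor of 1.05. Col4a5, Col14a1, Col15a1 and Col23a1 were among those that stood further apart, each at least 1.65-fold above the next class in both libraries.

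Of the 22 members under 10 CPM in fibroblast-like cells, 10 reached 10 CPM in another class or in 1 fibroblast class in both libraries, and every one of the 22 had at least 1 UMI in fibroblast-like cells over both libraries. Glia-like cells, the support cells of the enteric nerves, were the highest class of 5 of the 10, Col11a1, Col20a1, Col28a1, Col9a3 and Col4a4. Col11a1, a fibrillar chain known from cartilage, had 65.3 CPM in the Cre library and 72.0 CPM in the control library in glia-like cells, and 3 UMIs in the Cre library and 1 UMI in the control library in all fibroblast-like cells. Col20a1 had 146 CPM in the Cre library and 95.0 CPM in the control library in glia-like cells, and Col28a1 had 100.3 CPM in the Cre library and 124 CPM in the control library. ICC-like cells were the highest class for Col13a1, a transmembrane collagen, at 42.5 CPM in the Cre library and 37.9 CPM in the control library (23 and 21 UMIs). Col24a1 had its highest level in subepithelial-like cells, 36.0 CPM in the Cre library and 41.1 CPM in the control library, and Col8a2, a partner chain of Col8a1, in mesothelium-like cells, 14.2 CPM in the Cre library and 34.4 CPM in the control library (8 and 22 UMIs). Glia-like cells numbered 118 in the Cre library and 77 in the control library.

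The smaller stromal classes gave less certain values. Smooth muscle-like cells, 228 in the Cre library and 719 in the control library, had 1 of 23 measured members at least 1.5-fold lower and 6 higher, where 5.01% of 9337 measured genes were lower and 9.99% higher. Their most abundant chain was Col3a1, 1450 CPM in the Cre library and 2080 CPM in the control library (1.43-fold lower). The next by mean of the libraries were Col6a2 at 665 CPM in the Cre library and 674 CPM in the control library, Col1a2 at 639.7 CPM in the Cre library and 692 CPM in the control library, and Col4a1 at 681 CPM in the Cre library and 621 CPM in the control library. Col14a1 was 3.05-fold higher, 2.59 to 3.59, at 164 CPM in the Cre library and 53.9 CPM in the control library. In these cells 6 of 7 measured adventitial fibroblast markers were also at least 1.5-fold higher (1455 CPM in the Cre library and 744 CPM in the control library), as were 4 of 8 fibroblast markers, with 1 lower (8813 CPM in the Cre library and 5988 CPM in the control library), while the smooth muscle markers summed to 5504 CPM in the Cre library and 7086 CPM in the control library. In addition 6 of 16 dissociation stress genes were lower. Their part in the values of smooth muscle-like cells was not tested.

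ICC-like cells had 13 of 25 measured members at least 1.5-fold lower and 4 higher, where 14.8% of 9840 measured genes lay in each direction. Col12a1 was 3.65-fold lower, 2.65 to 5.11 (49 UMIs in the Cre library and 183 UMIs in the control library), and Col6a1 2.16-fold lower, 1.79 to 2.61. Markers of subepithelial fibroblasts were lower too, 6 of 7 measured, at 523 CPM in the Cre library and 1699.8 CPM in the control library, as were 4 of 5 of lamina propria fibroblasts, with 1 higher, at 816 CPM in the Cre library and 1983 CPM in the control library. Adventitial markers were higher, 4 of 7 measured, at 2779.5 CPM in the Cre library and 2009 CPM in the control library. Their part was not tested. Mesothelium-like cells, which cover the outer gut wall, had 2 of 23 lower and 7 higher, where 12.3% of 9489 genes were lower and 14.9% higher, and 5 of 8 fibroblast markers were higher there too (14055 CPM in the Cre library and 11151 CPM in the control library). Their part was not tested. Glia-like cells had 4 of 25 lower and 1 higher, where 12.3% of 9261 were lower and 17.5% higher. In lymphatic endothelium-like cells 16 of 19 were lower and 1, Col23a1, higher, where 28.7% of 8984 genes were lower and 25.9% higher, but this rests on 271 collagen UMIs in the Cre library and 572 UMIs in the control library. Fibroblast markers summed to 5807 CPM in the Cre library and 11348 CPM in the control library in those lymphatic cells, and droplets can carry RNA from other cells. Its part was not tested.

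Ratios of chains that assemble together differed between the libraries for some pairs and classes and not for others. Col4a1 had 1.94 UMIs for each UMI of Col4a2 in fibroblast-like cells of the Cre library (1.90 to 1.98) and 1.91 in those of the control library (1.88 to 1.95), which overlap. In adventitial-like cells the same ratio was 1.88 in the Cre library (1.82 to 1.95) and 1.72 in the control library (1.64 to 1.80), which do not. Col4a5 over Col4a6 was 2.32 in fibroblast-like cells of the Cre library (2.12 to 2.53) and 1.94 in those of the control library (1.84 to 2.04), also without overlap. Col1a1 over Col1a2 was 0.734 in the Cre library (0.714 to 0.755) and 0.994 in the control library (0.978 to 1.01) in lamina propria-like cells, intervals that do not overlap. The same held in adventitial-like cells, with 0.905 in the Cre library (0.889 to 0.921) and 1.04 in the control library (1.02 to 1.06). It also held in cells without a class, with 0.782 in the Cre library (0.762 to 0.803) and 0.931 in the control library (0.910 to 0.953). In subepithelial-like cells it was 0.718 in the Cre library and 0.709 in the control library, with overlapping intervals of 0.690 to 0.748 and 0.691 to 0.728. Among the named fibroblast classes, Col6a1 over Col6a3 varied far more between classes than between libraries. It was 7.50 in the Cre library and 5.82 in the control library in lamina propria-like cells, and 1.21 in the Cre library and 1.10 in the control library in adventitial-like cells. In mesothelium-like cells it was 2.74 in the Cre library (2.06 to 3.69) and 7.18 in the control library (4.82 to 11.1), without overlap. Cells without a class had 1.78 in the Cre library and 2.79 in the control library, and smooth muscle-like cells 2.24 and 2.16. Counts at the 5' end depend on where transcripts start, so these are ratios of tags and not of protein chains. Fibrillar genes made up 53.0% of all collagen UMIs in fibroblast-like cells of the Cre library and 59.3% in those of the control library, and basement membrane genes 9.78% in the Cre library and 7.50% in the control library. Of all UMIs, basement membrane genes made up 0.0750% in the Cre library and 0.0789% in the control library.

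**Figure D5:**
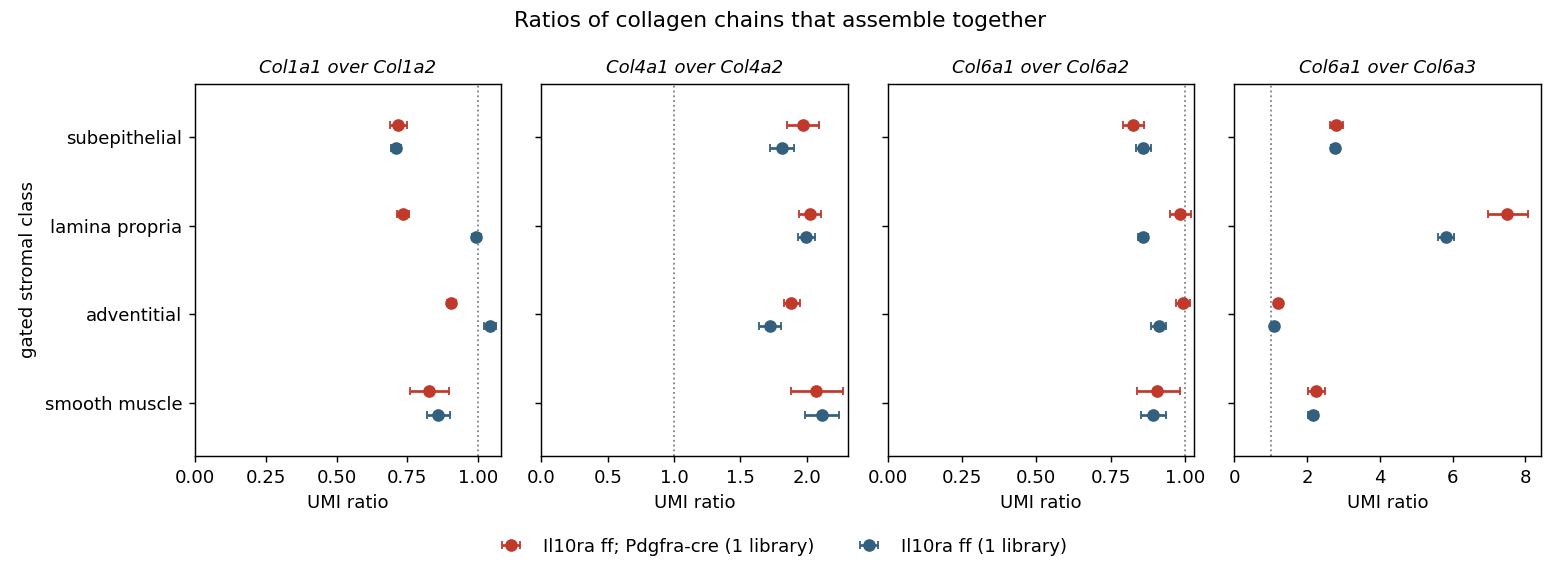
UMI ratio of 4 pairs of collagen chains that assemble together (x axis of each panel, starting at 0) in 4 gated classes (y axis), Il10ra ff; Pdgfra-cre in red above Il10ra ff in blue, 1 library each; points are ratios of summed UMIs, lines their 95% exact interval of counting error and the dotted line a ratio of 1. Col1a1 over Col1a2 differs between the libraries in lamina propria cells (0.734 and 0.994) and in adventitial cells (0.905 and 1.04). Col6a1 over Col6a3 reaches 7.50 and 5.82 in lamina propria cells.

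Genes that modify, export, cross-link and bind collagen were followed as 60 genes in 6 roles, of which 49 were measured in fibroblast-like cells. Of these 3 were at least 1.5-fold lower and 2 higher, near the 3.15% and 3.84% of all measured genes, and the median log2 ratio was -0.09 beside -0.04 over all measured genes. Of the 12 measured genes for hydroxylation and glycosylation none passed 1.5-fold in either direction, and P4hb, a subunit of prolyl 4-hydroxylase, was at 440 CPM in the Cre library and 484 CPM in the control library. Serpinh1, the collagen chaperone HSP47, was the 1 of 11 folding and export genes that was lower, at 1068 CPM in the Cre library and 1616 CPM in the control library (1.51-fold). Among 6 measured genes for propeptide removal none passed, and Pcolce, an enhancer of procollagen cleavage, was at 729 CPM in the Cre library and 619 CPM in the control library. Lox, a lysyl oxidase that cross-links collagen, was 1.59-fold higher, at 64.9 CPM in the Cre library and 40.8 CPM in the control library, while its relative Loxl1 was at 243 CPM in the Cre library and 344 CPM in the control library, short of 1.5-fold. None of 6 measured collagen receptor genes passed.

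Proteins that sit on or beside fibrils went in both directions. Postn, the matricellular protein periostin, was 2.77-fold lower at 635 CPM in the Cre library and 1761 CPM in the control library, and Ecm1, extracellular matrix protein 1, was 1.80-fold lower at 838 CPM in the Cre library and 1506 CPM in the control library. Thbs2, thrombospondin 2, was 1.74-fold higher at 137 CPM in the Cre library and 78.6 CPM in the control library. These 3 are values over all fibroblast-like cells. Of 10 measured genes of this role, 0 were 1.5-fold higher in subepithelial-like, lamina propria-like or adventitial-like cells. In that order 1, 5 and 1 were lower, and in cells without a class 1 was higher and 3 lower. In lamina propria-like cells 11 of 50 measured genes of all roles were at least 1.5-fold lower and 1 higher, where 3.74% of all measured genes were lower and 5.95% higher. Serpinh1 (log2 ratio -0.78), Loxl1 (-0.79) and Fn1, which encodes fibronectin (-1.26), were among the 11. In subepithelial-like cells 1 of 51 was lower and 2 were higher (2.75% and 5.1% of all measured genes), and in adventitial-like cells 2 of 51 were lower and 3 higher (2.12% and 4.47%), counts near those shares. Beside these matrix genes, 15 of 16 measured type I interferon response genes were higher by 1.5-fold or more in the fibroblast-like class (median log2 ratio 1.52, summed level 4058 CPM in the Cre library and 2047 CPM in the control library). Whether the interferon genes and the collagen genes differ for a shared reason was not tested. The 16 dissociation stress genes had 0 past 1.5-fold in either direction in these cells, with sums of 33536 CPM in the Cre library and 34687 CPM in the control library. Among 15 measured myofibroblast genes, Acta2, Tagln, Myl9, Tpm2 and Ccn2 had levels lower by 1.63-fold to 1.87-fold over fibroblast-like cells. Ccn1 alone passed 1.5-fold in the other direction. All were named because they passed, where 3.15% of all measured genes were lower and 3.84% higher. The list had a median log2 ratio of -0.08 and summed to 2991 CPM in the Cre library and 3106 CPM in the control library. Within the classes, 3 of 15 were lower and 1 higher in lamina propria-like cells, and 0 lower and 1 higher in adventitial-like cells. In subepithelial-like cells 0 of 15 passed in either direction (5353 CPM in the Cre library and 5340 CPM in the control library). The part of these genes in the collagen values was not tested.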

How the data were processed

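Single-cell counts came from 2 libraries of sorted colon stroma made with a 10x Genomics 5' kit, version 2, per the labels' protocols. The authors deposited raw UMI counts per gene and barcode. Cell Ranger 8.0.1 and the build GRCm39 are named in the submitters' processing notes. Both tables listed the same 33696 features, of which 26 rows repeated a symbol and gave way to the first. No per-sample column went unused.

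Barcodes needed 500 detected genes and a mitochondrial share of no more than 10% (214 failed in the Cre library and 330 in the control library). Doublets were called with Scrublet (scanpy 1.11.5, 8% assumed), which marked 97 cells of the Cre library and 477 of the control library at score cutoffs of 0.42 and 0.295, so the calls do not compare doublets between libraries. Cells were gated by detected markers: at least 4 for smooth muscle or pericytes, 3 for other types and 3 fibroblast markers, then the class with the highest mean marker score by a margin of 0.25 and at least 2 of its markers. Leiden clusters (leidenalg 0.10.2, resolution 1, 2000 variable genes without collagen genes, 30 components, 15 neighbours) were the alternative. Counts were summed per library and class and divided by total UMIs to CPM. Sums have exact Poisson, ratios exact binomial and shares Clopper-Pearson 95% intervals (scipy 1.17.1).

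Members, lists, gates and alternatives were chosen with earlier results of these data known. Named genes were all members with a mean of at least 10 CPM in fibroblast-like cells, the 3 most abundant of each other class, the members nearest to that line and, of each role list, the 2 highest, 2 lowest and 2 most abundant. Col11a1, Col13a1, Col20a1, Col28a1, Col4a4, Col6a4, Col8a2, Col9a3, Fn1 and values of Loxl1 and Serpinh1 within a class were named after their values were seen. The log2 ratio of summed counts was tested on counts simulated with counting error only. Filters, doublet calls, gates, thinning and the search of promoter windows were not simulated. Promoter windows are from RefSeq. No genome of the build of the counts was used here.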

Additional observations from a re-analysis of the deposited data

Results flagged for a closer look

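For 6 collagen genes the libraries differed by at least 1.5-fold in opposite directions in at least 2 of 6 classes searched (the 3 fibroblast classes, smooth muscle, ICC and glia). These 21 values are log2 ratios, Cre library over control library, and the differences between classes were not tested, as each genotype has 1 library. Col4a5 stood at 0.67 in smooth muscle-like cells, at -1.14 in lamina propria-like, -1.61 in adventitial-like and -1.42 in ICC-like cells. Col4a6 went the same ways, with 1.22 in smooth muscle-like cells, against -0.59 in subepithelial-like, -1.55 in lamina propria-like and -1.60 in ICC-like cells. The ICC-like values rest on few UMIs, 39 in the Cre library and 108 in the control library for Col4a5, and 26 and 82 for Col4a6. Col6a5 had 0.89 in subepithelial-like cells, but -1.03 in lamina propria-like and -1.05 in smooth muscle-like cells. Col8a1 was positive in subepithelial-like (1.16), smooth muscle-like (0.59) and ICC-like cells (0.80) and negative in lamina propria-like cells (-1.11). Col14a1 was positive in subepithelial-like (0.84), smooth muscle-like (1.59) and ICC-like cells (0.75) and negative in glia-like cells (-0.87). Col18a1 had 0.76 in subepithelial-like cells and -0.67 in ICC-like cells, the second from 20 UMIs in the Cre library and 33 UMIs in the control library, with an interval of the ratio of 0.337 to 1.11.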

How the results depend on the processing

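Up to 11 alternatives were applied to the counts and medians over fibroblast-like cells. They were also applied to the collagen shares and the 22 named genes in these cells and the 3 named classes. In lamina propria-like cells Col1a1 over Col1a2 and Col6a1 over Col6a3 were recomputed as well. Counts and medians within classes, UMIs per cell, class orders, other chain ratios and values of the other stromal classes were not recomputed. The count of 8 members at least 1.5-fold lower in fibroblast-like cells became 5 with a minimum of 50 CPM. It became 2 with the 3 named classes weighted alike, which also leaves out cells without a class. It was 8 under 8 other settings and 9 with no CPM minimum. The count of 0 members at least 1.5-fold higher became 1 with doublets kept, with cells thinned to 2000 UMIs and with classes weighted alike. With no CPM minimum 2 were higher. The median log2 ratio of -0.47 became -0.020 with no CPM minimum and -0.32 with classes weighted alike. The basement membrane median of -0.67 changed sign to 0.062 with no CPM minimum and with the 50 CPM minimum, and was -0.54 with 10 CPM added, -0.15 with classes weighted alike and -0.55 with cells thinned to 2000 UMIs. The median of other types, -0.09, changed sign to 0.047 with no CPM minimum and was -0.16 with the 50 CPM minimum. The fibrillar median, -0.49, was -0.44 with no CPM minimum, -0.45 with 10 CPM added and -0.37 with classes weighted alike. The beaded filament median, -0.61, was -0.29, -0.54, -0.47 and -0.58 with no CPM minimum, the 50 CPM minimum, classes weighted alike and thinned cells in that order. For these medians fewer or more genes enter under other minimums. The log2 ratio of the collagen share, -0.46 in fibroblast-like cells, was -0.44 with thinned cells. In subepithelial-like cells it was -0.26, and -0.21 with 1 more marker and -0.22 with clusters in place of gates. In lamina propria-like cells it was -0.58, and -0.59, -0.51 and -0.56 with 1 more marker, clusters and thinned cells in that order. In adventitial-like cells it was -0.32, and -0.34 with clusters. The cause of these moves was not tested beyond how each alternative is built. Of the 8 genes called lower, Col3a1 and Col4a6 stayed past 1.5-fold in every alternative that gave them a value, and no called gene changed sign. In fibroblast-like cells and the 3 named classes together, 28 of 88 log2 ratios of named genes were past 1.5-fold. Of these 28, 5 no longer were with 10 CPM added, 3 with 1 more marker, 3 with thinned cells and 2 with clusters. The largest moves of a called value were 0.91 with thinned cells and 0.85 with 1 more marker, apart from classes weighted alike. The share was not recomputed with other scaling, another CPM minimum, added CPM or the classes weighted alike. A share over all fibroblast-like cells depends on the class mix, so it could differ with equal weights.

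Replicates could not be left out, since each genotype has 1 library. No paired analysis was possible because the groups share 1 library number only. Differences in classes under 100 UMIs per gene are limited by depth, as their intervals show, and a library effect and a genotype effect cannot be told apart.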
